A study of Homo sapiens with 23 samples.

Results

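EFO-21, an established human ovarian cancer cell line, was compared between cells with acquired resistance to the CHK1 inhibitor prexasertib and the parental cells they came from. Of the 23 RNA-seq libraries of the series, 6 were EFO-21 libraries, recognised by the line in their column names: 3 with the resistance suffix (libraries 22, 23 and 24, group EFO-21_prexasertib_resistant) and 3 without it (libraries 10, 11 and 12, group EFO-21_parental). The resistant cells had been grown for a long time in rising concentrations of prexasertib, and no treatment was named for the parental cells. The concentrations and times used for EFO-21, whether the drug was present when RNA was taken, and whether the resistant line was 1 clone or a mixed population were not given in the sources used here. The libraries are labelled biological replicates, and the study speaks of replicate cultures of the parental and resistant cells. Whether the resistant cultures were selected separately was not given, so the p-values measure the spread between these cultures.

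Prexasertib blocks CHK1, a kinase that ATR switches on when DNA replication forks stall. Active CHK1 restrains the CDC25 phosphatases, which keeps CDK2 and CDK1 from firing further replication origins and from pushing cells with unfinished DNA into mitosis. WEE1 and PKMYT1 place the inhibitory phosphates that the CDC25 enzymes remove.

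All levels below are the deposited log2 expression values of 21658 genes, so a difference of 1 is a 2-fold change. The files hold no read counts, and the depth behind each value is unknown. A gene was called changed at a limma adjusted p under 0.05 and at least 2-fold. The lowest 10% of values in each library ended between 1.80 and 1.87, and a value in this range is said to be at the bottom. On the log2 scale a change that ends or starts there is a difference between values and not a measured fold. The 6 libraries fell into their labelled groups: Pearson correlations across genes were 0.986 to 0.987 within the parental group, 0.986 to 0.988 within the resistant group and 0.942 to 0.946 between them, against 0.624 to 0.749 between resistant EFO-21 and the parental libraries of the other lines. Of the ovarian carcinoma markers, EPCAM, KRT8, KRT18 and PAX8 were well above the bottom in all 6 libraries, WT1 was at the bottom in all 6, and KRT7 lay between 1.73 and 2.94. Of the 6 fibroblast markers, DCN, LUM and COL3A1 were at the bottom in all 6 libraries, COL1A2 was at the bottom in the parental libraries, and PDGFRB (5.52 to 6.01) and COL1A1 (4.48 to 5.58) were above it in every library. Markers of other cell types were not all low either, since the endothelial genes PECAM1 (8.45 to 8.59) and CDH5 (9.03 to 9.43) were expressed in every library and the monocyte gene CD14 fell from between 6.07 and 6.69 in parental to between 4.18 and 4.95 in resistant libraries. In the leukocyte list, 1 of 5 markers was called, and the summed linear level ranged from 159.5 to 206.2 in parental and from 110.7 to 138.1 in resistant libraries. The part of such cells or programmes in the results was not tested, and in bulk RNA fewer cells of a type cannot be told apart from less RNA per cell.

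Resistance went with a broad change of the transcriptome that was even in direction. In all, 3088 of 21658 genes (14.3%) were called, 1540 of them higher in the resistant cells (7.11%) and 1548 lower (7.15%), and in 3082 of the 3088 the 3 resistant libraries lay wholly above or below the 3 parental ones, as they did for 59.7% of all genes. The falls reached further than the rises: 468 genes were at least 4-fold lower and 386 at least 4-fold higher, while 81 were at least 16-fold lower and 28 at least 16-fold higher. For 287 of the called genes the parental libraries were all at the bottom, and for 346 the resistant ones were. The spread between libraries was small, with a median SD over genes of 0.116 in the parental and 0.129 in the resistant group.

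**Figure D1:**
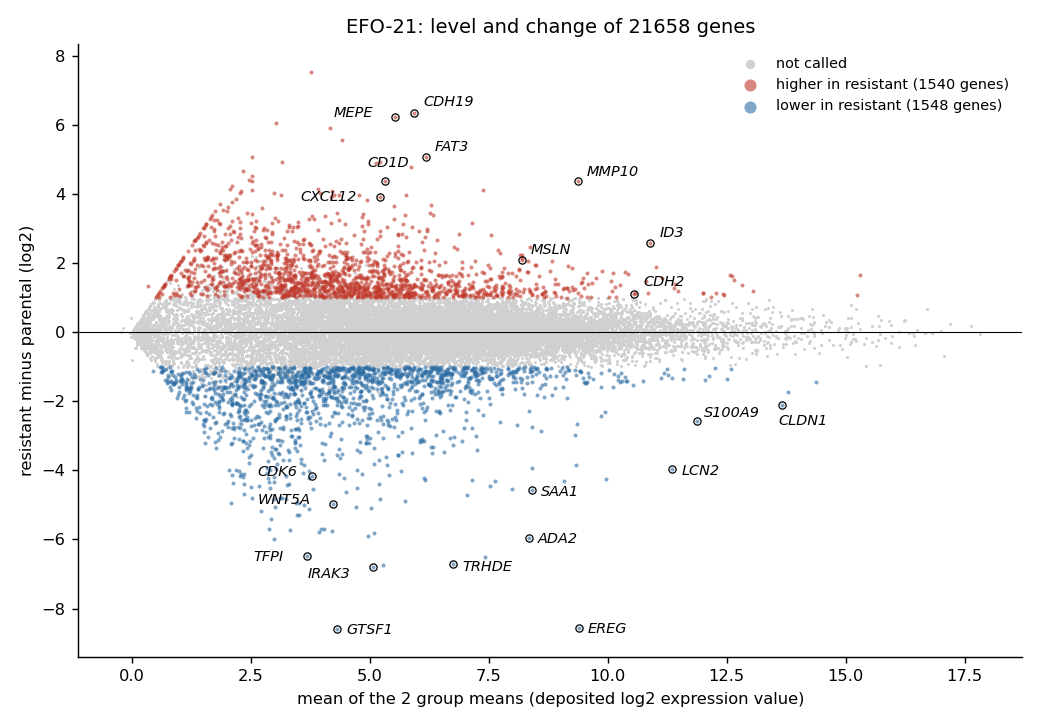
Change against level for the 21658 genes of EFO-21: the x axis is the mean of the parental and resistant group means (deposited log2 value), the y axis resistant minus parental (log2), and each point is 1 gene, coloured where it was called higher (1540) or lower (1548). EREG and GTSF1 lie lowest, at -8.55 and -8.59, and CDH19 and MEPE are the highest of the labelled genes, at 6.33 and 6.23.

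The largest falls were in genes of very different roles. EREG, which encodes the growth factor epiregulin (chr4:75230862-75254466, GRCh37), read 13.73, 13.62 and 13.64 in the parental and 5.11, 5.46 and 4.76 in the resistant libraries, a change of -8.55 ± 0.17 (SE, 3 against 3 libraries; limma adjusted p = 8.45e-06) or 376-fold lower. GTSF1, a partner of the piRNA pathway that silences transposons in germ cells (chr12:54849734-54867386), went from 8.6, 8.62 and 8.6 to the bottom, at 0.017, 0.019 and 0.013. IRAK3, a brake on Toll-like and interleukin 1 receptor signalling, went from 8.42, 8.55 and 8.42 to 1.57, 1.42 and 1.97. In none of the 3 genes did a resistant library come near a parental one. ADA2, a secreted adenosine deaminase, fell from 11.29, 11.4 and 11.27 to 4.89, 6.06 and 5.16 (-5.95 ± 0.29, limma adjusted p = 5.64e-05). TFPI, an inhibitor of the tissue factor pathway of coagulation, went from 7.09, 6.81 and 6.85 to the bottom, at 0.59, 0.33 and 0.44. The rest of the 12 largest falls were NAP1L5 (-6.74), the peptidase TRHDE (-6.71) with its antisense partner TRHDE-AS1 (-6.52), the growth factor AREG (-5.81), SMR3B (-5.79), the adaptor SKAP1 (-5.75) and FZD10-AS1 (-5.71). The libraries were strand specific, but whether the counting used strand was not given in the sources used here. TRHDE-AS1 (chr12:72643744-72670734) lies within TRHDE (chr12:72481046-73064538), so it cannot be told apart from TRHDE. FZD10-AS1 (chr12:130628860-130646801) ends before FZD10 (chr12:130647004-130650285) begins in the GRCh37 annotation used here.

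Of the 12 largest rises, all but MMP10 had a parental mean below 5.98, the median of all gene means. FLG2, which encodes filaggrin 2 of the outer epidermis (chr1:152321211-152332482), was listed at 0 in all 3 parental libraries and read 7.37, 7.41 and 7.81 in the resistant ones. XIRP2, an actin-binding protein of striated muscle, was likewise listed at 0 in the parental libraries and read 6.28, 5.66 and 6.2 in the resistant ones. Since the parental values are 0, no fold is given for either gene. CDH19, a type II cadherin (chr18:64168320-64271375), rose from 2.75, 2.52 and 3.04 to 8.98, 9.18 and 9.13, a change of 6.33 ± 0.15 (limma adjusted p = 1.17e-05). MEPE, a phosphoprotein of bone and tooth matrix, rose from 1.19, 3.19 and 2.88 to 8.54, 8.71 and 8.69. MMP10, the matrix metalloproteinase stromelysin 2 (chr11:102641233-102651359), rose from 7.11, 7.33 and 7.11 to 11.53, 11.61 and 11.53 (4.37 ± 0.069, 20.7-fold, limma adjusted p = 6.81e-06). The remaining large rises were ONECUT3 (5.9, parental libraries at the bottom), the succinate receptor SUCNR1 (5.55), the protocadherin FAT3 (5.07), the leukotriene receptor CYSLTR1 (4.88), the synaptic adhesion protein NLGN4X (4.79) and the lipid antigen presenting molecule CD1D (4.37). NLGN4Y, on chromosome Y and also among the 12 largest rises, is a close copy of NLGN4X on chromosome X. Reads of these genes could be shared, so the rise of NLGN4Y cannot be told apart from that of NLGN4X.

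Gene lists covering 35 pathways or cell programmes were then read against the share of all genes called. Of 1061 measured members, 219 were called (20.6%), 81 higher (7.63%) and 138 lower (13%), against 7.11% and 7.15% of all genes. The share called lower was highest for metallothioneins, chemokines and the ERBB family, and the share called higher for the IL6 family and the ABC transporters, 20% each, followed by mesenchymal genes, as the plot of list shares shows.

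**Figure D2:**
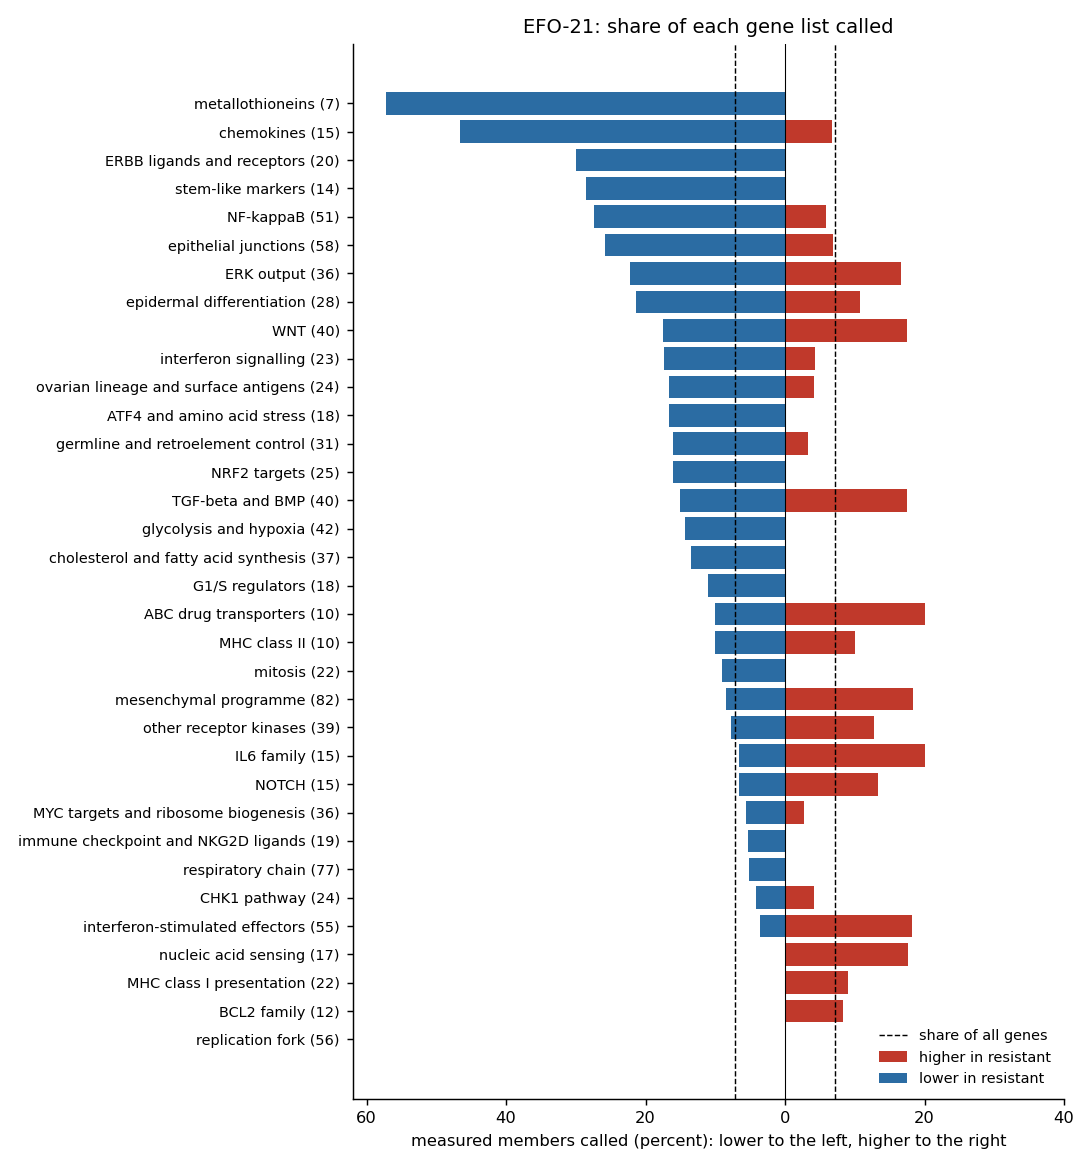
Share of the measured members of 34 gene lists that was called higher (bars to the right) or lower (bars to the left) in resistant EFO-21, in percent, with the number of measured members in brackets. Dashed lines mark the shares over all genes, 7.11% higher and 7.15% lower. Metallothioneins (4 of 7) and chemokines (7 of 15) have the longest bars on the lower side, and no member of the replication fork list was called.

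In the drug's target pathway, CHEK1, which encodes CHK1, read 7.62, 7.46 and 7.63 in parental and 7.59, 7.65 and 7.57 in resistant libraries, and the groups overlapped (0.035 ± 0.06, limma adjusted p = 0.658). Of 24 measured genes from ATR to the cyclin-dependent kinases, 1 was called higher and 1 lower (4.17% each, against 7.11% and 7.15% of all genes), with a median change of 0.076 against 0.0099 over all genes. The higher one was PKMYT1, the membrane-bound kinase that inhibits CDK1, with 7.21, 7.2 and 7.33 in parental and 8.38, 8.3 and 8.26 in resistant libraries (1.07 ± 0.056, limma adjusted p = 6.81e-05). The lower one was CCNA2, cyclin A2 of S phase and mitotic entry, with 9.29, 9.14 and 9.23 against 8.09, 8.26 and 8.18 (-1.05 ± 0.059, limma adjusted p = 8.26e-05). WEE1, the nuclear counterpart of PKMYT1, had values of 7.6, 7.47 and 7.39 in parental and 7.84, 7.97 and 7.97 in resistant libraries. Its groups did not overlap, as for 59.7% of all genes, but differed by under 2-fold (0.44 ± 0.07). Both called genes sit where their neighbours moved too: all 24 genes around PKMYT1 were above 0 with a median of 0.67, and 20 of the 24 around CCNA2 were below 0 with a median of -0.88.

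Most genes of the replication fork were higher by less than 2-fold. None of the 56 measured helicase, clamp, polymerase and fork protection genes was called, yet 52 had a change above 0 and the median was 0.40. Without a fold threshold, 37 of the 56 were higher and 2 lower at a limma adjusted p under 0.05, where 25% and 23.4% of all genes were, 48.4% in both directions together. SAMHD1, a dNTPase that also acts at stalled forks, read 6.82, 6.84 and 6.78 in parental and 7.52, 7.58 and 7.57 in resistant libraries (0.74 ± 0.045). SLFN11, which blocks stressed forks and sensitises cells to drugs that damage replication, read 8.11, 8.36 and 8.15 and 8.69, 8.91 and 8.73 (0.57 ± 0.088, limma adjusted p = 0.00319). The libraries of the 2 groups did not overlap for either gene, as for 59.7% of all genes. Among 22 mitotic genes, 2 fell (9.09%, near the 7.15% of all genes) and none rose. These were the kinetochore motor CENPE (7.36, 7.05 and 7.28 to 5.83, 5.74 and 5.73) and the spindle checkpoint protein MAD2L1 (8.0, 7.88 and 7.95 to 6.42, 6.89 and 6.97). Both lie on the long arm of chromosome 4, where the medians of their 24 neighbouring genes were -1.11 and -0.88.

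CDK6, a kinase that opens the G1 phase with D-type cyclins (chr7:92234235-92465887), went from 5.86, 5.79 and 5.95 in parental cells to the bottom in resistant cells, at 1.79, 1.53 and 1.79 (limma adjusted p = 2.43e-05). Its 24 neighbours had a median change of -0.10, and 1 of them was called lower. The inhibitor CDKN1C was the other called gene among 18 regulators of the G1 to S transition (-1.06 ± 0.074). The share lower in this list was 11.1%, against 7.15% of all genes. CDKN2A (-0.03) and RB1 (0.41) were not called. The death receptor gene FAS dropped from 8.01, 7.93 and 7.94 to 5.16, 5.07 and 5.09 (-2.85 ± 0.059, limma adjusted p = 9.87e-06), and PHLDA3, an inhibitor of AKT, changed by -2.49. SPATA18 rose by 1.1, a call that was lost without parental library 12 and in the fit of all 23 libraries. CDKN1A, an inhibitor of cyclin-dependent kinases, read 7.6, 7.79 and 7.62 against 7.43, 7.63 and 7.42 with overlapping groups. In the BCL2 family the only call among 12 genes was HRK, a sensitiser of cell death (1.66 ± 0.4), which was not called without resistant library 23. That share, 8.33%, was near the 7.11% of all genes called higher.

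Most measured ligands of the ERBB family fell, and EGFR was not called. Epiregulin, amphiregulin, betacellulin and the neuregulins are membrane-bound growth factors that, once shed, bind EGFR and its relatives and switch on the RAS to ERK cascade. Of 9 measured ligands 5 fell and none rose, and 6 of all 20 genes of the list fell (30% against 7.15% of all genes). AREG dropped from 8.03, 8.05 and 7.93 to 1.61, 2.57 and 2.41 (-5.81 ± 0.26, limma adjusted p = 4.46e-05), and BTC went from 4.57, 4.68 and 4.94 to the bottom, at 1.15, 1.33 and 1.04. Together with EREG these genes lie side by side on chromosome 4, where all 24 neighbours of EREG were below 0 with a median of -0.79. The part of this stretch in the falls of the ligands was not tested. NRG4 changed by -1.2 and NRG2 by -1.22, the latter ending at the bottom. HBEGF was not called (7.18, 6.92 and 7.11 in parental, 7.56, 7.19 and 7.35 in resistant libraries). Among the receptors, EGFR read 6.23, 6.13 and 6.28 in parental and 6.34, 5.94 and 5.97 in resistant libraries with overlapping groups (-0.13 ± 0.13, limma adjusted p = 0.43). ERBB3 dropped from 4.16, 4.12 and 3.53 to 1.79, 1.98 and 1.78, within a stretch of chromosome 12 where all 24 neighbours were below 0 with a median of -1.08. With genes of low mean value left out of the test, 3 calls of the list remained.

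The output of ERK signalling split into a part that fell and a part that rose. Of 36 measured genes, 8 fell (22.2%) and 6 rose (16.7%), against 7.15% and 7.11% of all genes, and the median was 0.045. Among the falls were ETS factors and feedback inhibitors that cells make while ERK is active. ETV4 dropped from 4.61, 4.58 and 4.49 to 1.72, 1.8 and 1.91 and its relative ETV5 from 7.67, 7.75 and 7.71 to 6.61, 6.64 and 6.74. PHLDA1 dropped from 11.08, 11.13 and 10.99 to 8.59, 8.74 and 8.58 (-2.43 ± 0.058, limma adjusted p = 1.17e-05). The receptor feedback inhibitors SPRY2 (-1.87) and SPRY1 (-1.64), the ERK phosphatase DUSP4 (-1.45), the survival protein IER3 (-1.53) and the small MAF factor MAFF (-1.13, not called without library 11) also fell, while DUSP6, the other ERK phosphatase with such a role, was not called (-0.79). Of the 24 neighbouring genes, 21 around SPRY1 and 23 around PHLDA1 were below 0, with medians of -0.75 and -0.59. Around the other called falls the medians lay between -0.09 and 0.21. The part of such stretches in these falls was not tested. The rises were largely immediate early genes, which many stimuli switch on within minutes: EGR1 went from 8.41, 9.13 and 8.67 to 10.14, 10.09 and 10.21, EGR3 from 3.49, 1.39 and 2.25 to 5.78, 5.4 and 6.07, and EGR2 from the bottom (1.62, 0 and 0.78) to 3.47, 4.74 and 4.48. ATF3 (2.06), the membrane protein EMP1 (1.57) and the stress phosphatase DUSP1 (1.05) rose with them, and DUSP1 was not called without resistant library 22. FOSL1 overlapped between the groups (0.19). The AP-1 motif TGANTCA, sought on both strands in RefSeq promoters (GRCh38.p14, 250 bases before to 50 after the start), was found in none of the 9 promoters of called lower ERBB and ERK genes, in 1 of 5 of called higher ones and in 5.33% of the 14340 promoters of measured genes.

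Other receptor kinases and their ligands changed in both directions, with 5 of 39 genes higher (12.8%) and 3 lower (7.69%), against 7.11% and 7.15% of all genes. With genes of low mean value left out, 4 were higher and 1 lower. The ligand KITLG fell from 4.75, 4.84 and 4.89 to 2.13, 1.83 and 2.1 and FGF9 from 6.26, 6.74 and 6.27 to 3.86, 4.42 and 3.35. KDR ended at the bottom (-1.6). ROR2, a receptor for WNT5A (1.94), TYRO3 (1.28), PDGFC (1.17), FGFR3 (1.02) and MST1R (1.01) rose, the last 2 with calls that ended when 1 library was left out (12 or 22 for FGFR3, and 10, 11 or 22 for MST1R). MET read 9.65, 9.53 and 9.6 in parental and 9.6, 9.51 and 9.57 in resistant libraries, and AXL changed by less than 2-fold (0.53).

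**Figure D3:**
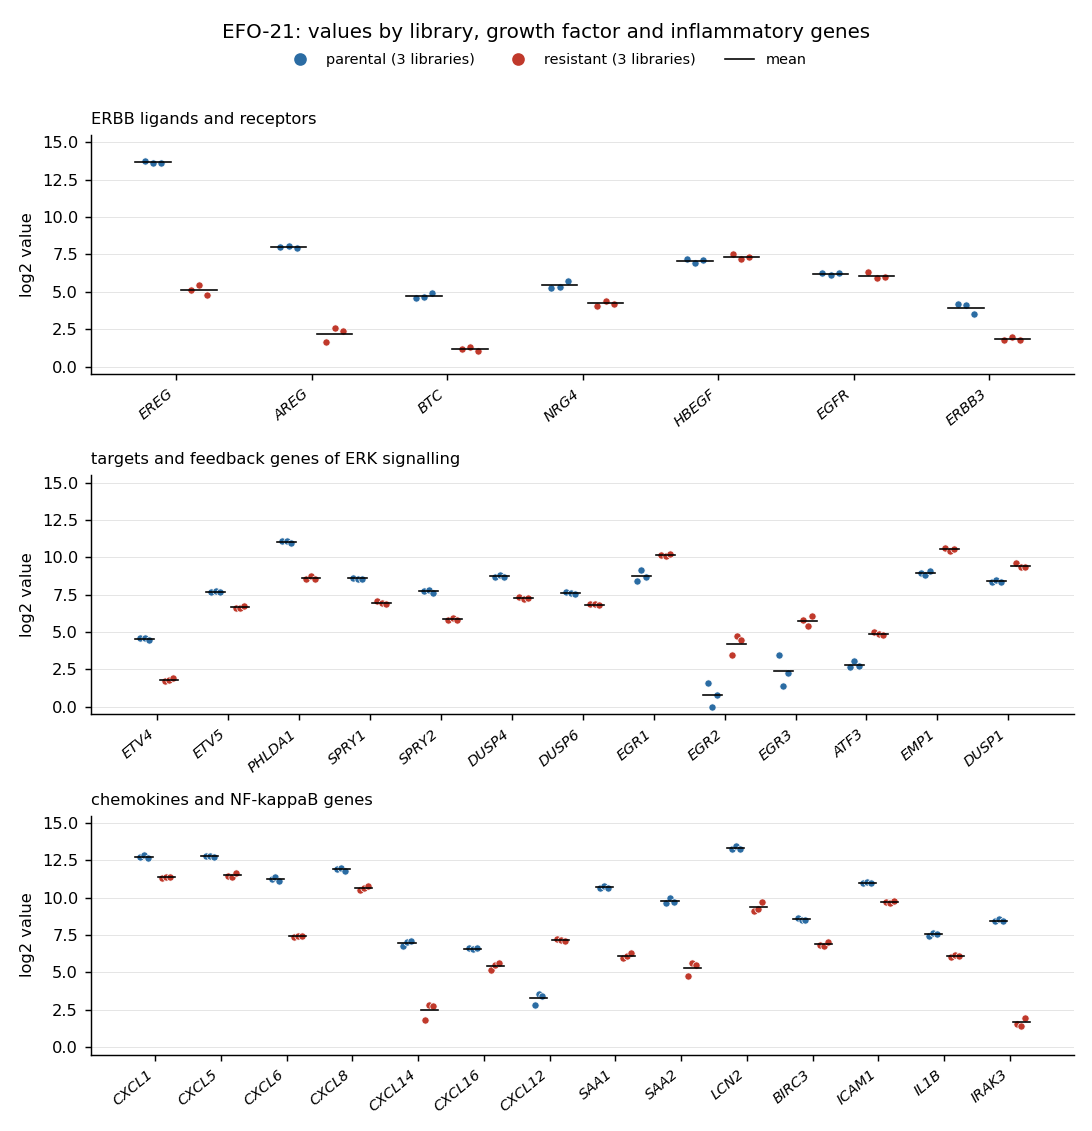
Deposited log2 values of named growth factor, ERK and inflammatory genes in the 6 EFO-21 libraries: blue points are the 3 parental and red points the 3 resistant libraries, and short black lines the group means. EREG, AREG, BTC and the chemokines CXCL6 and CXCL14 sit far lower in the resistant libraries, and CXCL12 and the EGR genes higher.

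Most CXC chemokines fell. Of these small secreted proteins, CXCL1, CXCL2, CXCL5, CXCL6 and CXCL8 attract neutrophils through CXCR2, and tumour cells make them in answer to NF-kappaB and ERK signals. Of 15 chemokine genes measured, 7 were lower (46.7%) and 1 higher (6.67%), against 7.15% and 7.11% of all genes. Their median was -0.99, and 8 of the 9 measured CXC genes were called. CXCL6 dropped most among the genes next to each other on chromosome 4, from 11.27, 11.41 and 11.11 to 7.4, 7.45 and 7.41 (-3.84 ± 0.075, 14.3-fold, limma adjusted p = 8.45e-06). CXCL8, interleukin 8, dropped from 11.93, 11.96 and 11.82 to 10.54, 10.64 and 10.77 (-1.25 ± 0.068). CXCL1 changed by -1.38, CXCL5 by -1.27 and CXCL2 by -1.03, the last not called without library 11, 12 or 22. All of these lie in the chromosome 4 cluster that also holds EREG, AREG and BTC, and 23 of the 24 neighbours of CXCL8 were below 0 (median -0.85). CXCL14, on chromosome 5, dropped from 6.8, 7.02 and 7.12 to 1.79, 2.85 and 2.76 (-4.51 ± 0.31, limma adjusted p = 0.000157), and CXCL16, on chromosome 17, changed by -1.16. CXCL12, the ligand of CXCR4 (chr10:44865613-44881941), moved the opposite way, from 2.82, 3.56 and 3.43 to 7.21, 7.2 and 7.1 (3.9 ± 0.21, 14.9-fold, limma adjusted p = 7.31e-05). The CC chemokines CCL2 (-0.32) and CCL20 (-0.45) overlapped between the groups.

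Genes of NF-kappaB, the factor that interleukin 1 and tumour necrosis factor activate, fell more often than they rose. Of 51 measured genes, 14 fell (27.5%) and 3 rose (5.88%), against 7.15% and 7.11% of all genes. LCN2, an iron-binding acute phase protein, dropped from 13.27, 13.47 and 13.29 to 9.12, 9.27 and 9.72 (-3.97 ± 0.16, limma adjusted p = 3.11e-05). Serum amyloid SAA1 dropped from 10.65, 10.77 and 10.68 to 6.0, 6.07 and 6.28, and its close copy SAA2 from 9.62, 9.98 and 9.68 to 4.74, 5.66 and 5.53. BIRC3 (-1.65), IL1B (-1.44) and ICAM1 (-1.29) also fell. In the receptor arm, IL1R1 (-3.42) and the kinase IRAK2 (-2.46) ended at the bottom. Of the 5 subunits, NFKB1 fell, from 6.46, 6.35 and 6.48 to 5.1, 5.15 and 5.19 (-1.28 ± 0.083, limma adjusted p = 0.00013). It lies on the long arm of chromosome 4, where 23 of its 24 neighbours were below 0, 18 of them called lower, with a median of -1.19. NFKB2 (-0.25) and RELB (-0.22) were not called, nor were the direct targets NFKBIA (0.42) and TNFAIP3 (0.072). VCAM1 (from the bottom), TLR1 and TNFRSF1B were the 3 rises (1.63, 1.31 and 1.07), and of these TLR1 was not called without library 11, 22, 23 or 24 and TNFRSF1B without library 10, 22 or 23. With genes of low mean value left out, the list had 10 falls and 1 rise. IL6 was not called, and its groups overlapped (7.42, 7.53 and 7.57 in parental, 7.48, 7.47 and 7.52 in resistant libraries). Of 15 genes of the IL6 family, LIF fell (-1.04) and SOCS2 (1.19), CISH (1.09) and IL11RA (1.05) rose, and without parental library 11 only 2 of these 4 calls were left. The shares were 6.67% lower and 20% higher, against 7.15% and 7.11% of all genes.

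Several RNA sensors and interferon-induced genes rose moderately. Cells detect viral or self double-stranded RNA through RIGI, IFIH1 and TLR3, which signal to interferon genes, while interferon itself acts through JAK kinases, STAT factors and IRF9 on a common promoter element. Of 17 sensing genes, 3 rose (17.6%, against 7.11% of all genes) and none fell. IFIH1 (MDA5) rose from 6.92, 6.83 and 6.96 to 7.95, 8.03 and 8.08 (1.12 ± 0.057, limma adjusted p = 6.25e-05) and RIGI from 6.8, 6.64 and 6.82 to 7.77, 7.79 and 7.85. TLR3 (1.13) was not called without library 10, 11 or 22, and RIGI not without library 11, which left 1 call in the list. STING1 lay just under the fold threshold, with 9.44, 9.48 and 9.55 in parental and 10.52, 10.47 and 10.48 in resistant libraries (1.0 ± 0.036, limma adjusted p = 2.38e-05), and the DNA sensor CGAS was not called (-0.29).

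The measured ligand and receptor genes of the interferon list were called lower or not called. Of its 8 ligands 3 were measured, and IFNB1, IFNL1, IFNL2, IFNL3 and IFNK had no values. Of 23 genes of interferon signalling, 4 fell (17.4%) and 1 rose (4.35%), against 7.15% and 7.11% of all genes. IFNE, an interferon made constitutively by epithelia of the reproductive tract (chr9:21480838-21482312), dropped from 7.2, 7.64 and 7.55 to 4.61, 2.71 and 2.65 (-4.13 ± 0.54, limma adjusted p = 0.0017). The receptor chain IFNGR1 dropped from 8.66, 8.7 and 8.6 to 7.38, 7.52 and 7.63 and the kinase JAK1 from 8.95, 8.85 and 8.92 to 7.95, 7.86 and 7.84, a call that ended without parental library 10. IRF8 went from 5.97, 6.02 and 6.25 to the bottom, at 1.22, 1.6 and 1.79. IRF9 (0.35 ± 0.06) was higher in every resistant library than in any parental one but by less than 2-fold. Groups did not overlap for 59.7% of all genes. The feedback protease USP18 was lower (-0.52) without being called. ISG15, a ubiquitin-like protein attached to other proteins after interferon, was the rise, from 11.87, 11.83 and 11.9 to 12.93, 12.998 and 12.98.

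Of 55 interferon-stimulated effectors, 10 rose (18.2%) and 2 fell (3.64%), against 7.11% and 7.15% of all genes. Of the 55, 47 had a change above 0, and the median was 0.37. At any fold, 31 were higher and 3 lower at a limma adjusted p under 0.05, where 25% and 23.4% of all genes were. UBA7, the enzyme that activates ISG15, rose most, from 4.45, 4.5 and 4.32 to 6.81, 6.81 and 6.65 (2.33 ± 0.1, 5.04-fold, limma adjusted p = 3.94e-05). The 3 oligoadenylate synthetases, which make the signal that activates RNase L, rose together: OAS1 from 8.14, 8.13 and 8.14 to 9.56, 9.68 and 9.74, OAS2 from 6.91, 6.61 and 6.83 to 8.31, 8.27 and 8.35 and OAS3 from 7.1, 6.97 and 7.07 to 8.96, 8.64 and 8.66. In contrast, OASL, which lacks that activity, was not called (-0.14). The antiviral GTPase MX1 rose by 1.43 ± 0.055, the mitochondrial protein IFI6 by 1.86 ± 0.086, IFI44L by 1.32 ± 0.058 and SHFL, which stops ribosomes that have shifted frame, by 1.49 ± 0.11. IFI44, beside IFI44L on chromosome 1, overlapped between the groups (7.96, 7.85 and 7.89 against 7.88, 7.89 and 7.99), and BST2 (0.21) and SAMD9 (0.23) were not called. IFIT1 (0.92), IFI27 (0.86), RSAD2 (0.93) and IFITM1 (0.73) were higher in each resistant than in each parental library without reaching 2-fold. Groups did not overlap for 59.7% of all genes. TNFSF10, the death ligand TRAIL, dropped from 9.76, 9.81 and 9.66 to 7.81, 8.0 and 7.95 (-1.82 ± 0.063, limma adjusted p = 2.11e-05), and GBP2 fell by 1.02, not called without library 11 or 22.

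The promoters of these genes show the element that interferon acts through, whether or not the gene moved. The interferon-stimulated response element, sought as GAAA, any 2 bases, and GAAA on either strand, was present in 30 of the 41 effectors with a RefSeq promoter (73.2%), in 5 of 8 that rose (62.5%), in 24 of 32 that were not called (75%) and in 2.94% of all 14340 promoters. The 5 stretches below, from RefSeq promoters of assembly GRCh38.p14 and written 5′ to 3′ along the gene, show the element (in capitals) in 3 genes that rose, 1 that was not called and 1 that fell.
IFI6: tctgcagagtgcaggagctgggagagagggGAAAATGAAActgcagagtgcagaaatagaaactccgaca
OAS3: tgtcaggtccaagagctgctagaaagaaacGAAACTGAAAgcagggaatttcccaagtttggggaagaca
SHFL: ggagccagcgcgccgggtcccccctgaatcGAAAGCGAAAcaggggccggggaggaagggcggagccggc
BST2: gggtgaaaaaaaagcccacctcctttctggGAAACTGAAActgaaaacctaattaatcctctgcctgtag
TNFSF10: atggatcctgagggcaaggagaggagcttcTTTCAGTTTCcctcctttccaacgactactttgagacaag
Positions are counted from the transcription start. In GRCh38.p14, the IFI6 stretch is chr1:27672268-27672337 on the minus strand, with the match starting at -115, the OAS3 stretch is chr12:112938301-112938370 on the plus strand, with the match starting at -143. In the same assembly, the SHFL stretch is chr19:10086244-10086313 on the plus strand, with the match starting at -43, the BST2 stretch is chr19:17405721-17405790 on the minus strand, with the match starting at -130, and the TNFSF10 stretch is chr3:172523578-172523647 on the minus strand, with the match starting at -187, there as the reverse complement. IFI6 held 3 matches within its promoter, and OAS3 and BST2 held 2 each, those of BST2 overlapping. A match describes the letters of these promoters and not the binding of a factor.

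Most genes of antigen presentation through MHC class I were slightly higher. Of 22 genes, 20 had a change above 0 (median 0.44). At any fold, 15 were higher and none lower at a limma adjusted p under 0.05, where 25% and 23.4% of all genes were. At 2-fold, 2 were called higher (9.09%, near the 7.11% of all genes). These were HLA-F (4.56, 4.66 and 4.56 to 6.3, 6.26 and 6.45) and the immunoproteasome subunit PSMB9 (4.13, 4.08 and 3.77 to 5.13, 5.17 and 5.29). B2M, the light chain, read 13.55, 13.55 and 13.54 in parental and 14.16, 14.18 and 14.23 in resistant libraries (0.64 ± 0.04, limma adjusted p = 0.000109). The classical chains HLA-B (0.37) and HLA-C (0.56) were each higher in every resistant library than in any parental one by less than 2-fold. Groups did not overlap for 59.7% of all genes, and reads of these close copies could be shared. In MHC class II, CIITA, the master regulator, fell by 1.02 and HLA-DQA1 rose by 1.11, and each call ended when 1 library was left out (10 for HLA-DQA1, which was also not called in the fit of all 23 libraries, and 11, 12 or 22 for CIITA). CD274, which encodes PD-L1, overlapped between the groups (-0.27), and VTCN1, the checkpoint ligand B7-H4, was the 1 called gene of 19 checkpoint and NKG2D ligands, from 6.31, 6.13 and 6.07 to 4.42, 4.2 and 4.53. That share, 5.26%, was below the 7.15% of all genes called lower.

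The ID genes rose, and antagonists of BMP signalling went both ways. BMP ligands act through SMAD1, SMAD5 and SMAD9 to switch on the ID genes and the inhibitory SMADs, and secreted antagonists such as chordin, follistatin and noggin hold the ligands back. Of the 13 antagonists and targets in the TGF-beta and BMP list, 4 rose and 4 fell, and ID1, ID2 and ID3 were among the rises. ID3 went from 9.37, 10.1 and 9.33 to 12.15, 12.23 and 12.21 (2.59 ± 0.21, limma adjusted p = 0.000269), ID2 from 9.45, 9.78 and 9.24 to 11.18, 11.25 and 11.27 and ID1 from 11.63, 12.04 and 11.46 to 12.79, 12.88 and 12.86. For each of the 3 genes, parental library 11 was the highest of the parental libraries and still below every resistant one. SMAD6 (1.24 ± 0.088), SMAD9 (2.23 ± 0.22) and the ligand BMP2, from 2.71, 2.31 and 3.23 to 5.07, 4.87 and 4.83, rose as well, while BMP4 was not called (0.54). Of the antagonists, CHRD (chordin) went from 5.04, 5.36 and 5.04 to the bottom (1.58, 1.29 and 1.48), FST (follistatin) ended at the bottom (-2.31) and CHRDL1 was lower with both groups at the bottom, while NOG (noggin) rose from 11.9, 11.89 and 11.94 to 13.05, 12.97 and 12.93 (1.07 ± 0.041, limma adjusted p = 2.71e-05). The nodal antagonist LEFTY1 fell by 1.73. Over the whole TGF-beta and BMP list, 7 of 40 genes rose (17.5%) and 6 fell (15%), against 7.11% and 7.15% of all genes. With genes of low mean value left out there were 6 rises and 3 falls. On the activin and TGF-beta side, INHBB fell from 8.17, 8.24 and 8.46 to 4.44, 5.27 and 4.74 and TGFBI, a matrix protein that TGF-beta induces, from 8.0, 7.98 and 8.02 to 4.69, 4.65 and 4.68 (-3.33 ± 0.058, limma adjusted p = 6.81e-06). TGFB2 (-0.69) and INHBA (0.94) were not called.

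WNT genes went both ways, 7 of 40 higher and 7 lower (17.5% each, against 7.11% and 7.15% of all genes). WNT5A, a ligand of the non-canonical branch (chr3:55499743-55524567), fell from 6.94, 6.7 and 6.52 to 2.42, 1.29 and 1.5 (-4.98 ± 0.33, limma adjusted p = 0.000133), and the receptor FZD10 from 9.23, 9.26 and 9.35 to 5.27, 4.93 and 4.82. The receptor FZD1 rose from 9.59, 9.52 and 9.64 to 11.29, 11.22 and 11.29 (1.68 ± 0.04), and FZD4 by 1.16. AXIN2, the feedback target used to read beta-catenin activity, dropped from 5.03, 5.36 and 5.36 to 3.12, 3.39 and 3.5, while LGR5 went up from the bottom (1.77). WNT11 (-1.74), SP5 (-1.27) and WNT7B (-1.22, not called without library 23) fell, DKK1 ended at the bottom (-1.25), and WNT2B (2.3, from the bottom), WNT5B (1.13), WNT6 (1.12) and SFRP2 (1.79) rose. In the fit of all 23 libraries SP5 and SFRP2 were not called, and SFRP2 was not called in 4 of the 6 fits that left out 1 library. With genes of low mean value left out, 3 rises and 6 falls remained. FZD7 (-0.63) and WNT7A (0.26) were not called. In the NOTCH list, the ligand JAG1 rose from 8.49, 8.39 and 8.43 to 9.88, 9.62 and 9.61 and the receptor NOTCH3 by 1.02, the latter not called without library 12 or 22, while DLL1 fell by 1.25 to the bottom, not called without library 23. The target HES1 was not called (0.55).

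Cell adhesion changed on both sides of the usual divide between epithelium and mesenchyme. Of 58 epithelial junction genes, 15 fell (25.9%) and 4 rose (6.9%), against 7.15% and 7.11% of all genes, with a median of -0.34. LAD1, a component of the filaments that anchor epithelia to the basement membrane, went from 6.74, 6.84 and 6.92 to the bottom, at 1.08, 1.33 and 0.95. The desmosomal plakophilin PKP3 dropped from 6.55, 6.43 and 6.62 to 3.75, 3.22 and 3.46, and the splicing factors ESRP1 and ESRP2, which set epithelial isoforms, dropped from 4.25, 4.32 and 4.26 to 2.14, 1.77 and 1.27 and from 4.75, 4.84 and 4.93 to 2.41, 2.44 and 2.76. CLDN1, a tight junction protein, fell by 2.1 ± 0.067 from 14.83, 14.66 and 14.66 to 12.69, 12.56 and 12.58, and CLDN7 (-1.48), SMIM22 (-4.17, ending at the bottom) and the protease TMPRSS4 (-2.55) fell with it. Yet CDH1, E-cadherin itself, rose from 4.52, 4.83 and 4.59 to 6.01, 6.09 and 6.0 (1.39 ± 0.12, limma adjusted p = 0.000358), CLDN11 rose from 10.14, 10.06 and 10.01 to 12.05, 11.94 and 11.86, and EPCAM (-0.21), CLDN4 (-0.41) and CLDN3 (-0.69) were not called. ZNF750, an epidermal transcription factor, rose from the bottom (2.95), and NECTIN4 rose by 1.19, a call not made in the fit of all 23 libraries or without library 10, 12, 22 or 23. With genes of low mean value left out, 10 falls and 2 rises remained.

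Of 82 mesenchymal genes, 15 rose (18.3%) and 7 fell (8.54%), against 7.11% and 7.15% of all genes. CDH2, N-cadherin, rose from 10.04, 9.99 and 9.99 to 11.12, 11.1 and 11.14 (1.12 ± 0.028, limma adjusted p = 1.17e-05) and fibronectin FN1 from 6.34, 6.36 and 6.26 to 7.5, 7.19 and 7.47. Among proteases and their inhibitors, 5 of 13 rose (38.5%) and 2 fell (15.4%). Beside MMP10, the collagenase MMP1 rose from 4.11, 3.99 and 4.46 to 6.96, 6.96 and 7.06, next to it on chromosome 11, and the aggrecanase ADAMTS5 rose from 1.86, 1.3 and 1.25 to 4.15, 4.17 and 4.23. The gelatinase MMP9 dropped from 6.78, 6.78 and 6.84 to 3.85, 3.51 and 3.87, and the plasminogen activator PLAT fell by 1.87. COL6A3, listed at 0 in the parental libraries, read 2.96, 2.12 and 0.74 in the resistant ones and was not called in 4 of the 6 fits with 1 library left out. COL11A1 rose from the bottom (1.81). The neural adhesion molecule NCAM1 dropped from 7.95, 7.86 and 7.84 to 5.09, 4.83 and 4.77, the proteoglycan VCAN from 8.55, 8.47 and 8.59 to 5.97, 5.54 and 5.78, and the collagen receptor ITGA1 (-2.38) and the collagen COL5A2 (-1.69) fell. Of the 8 transcription factors in the list, SNAI1, a repressor of CDH1, rose from 6.78, 6.8 and 6.61 to 8.28, 8.31 and 8.04 (1.48 ± 0.093, limma adjusted p = 0.000115) and FOXC2 by 1.01, a call that ended without library 11, 12, 22 or 23 and in the fit of all 23 libraries. ZEB1 (0.43) and TWIST1 (-0.59) were not called, and SNAI2 and ZEB2 were at the bottom in all 6 libraries. VIM, the mesenchymal intermediate filament, read 10.25, 10.31 and 10.37 in parental and 9.61, 9.69 and 9.65 in resistant libraries (-0.66 ± 0.04). Of the 6 fibroblast markers 1 was called, COL1A2, which rose from the bottom, and their summed linear level ranged from 74.41 to 87.52 in parental and from 107.1 to 116.7 in resistant libraries.

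**Figure D4:**
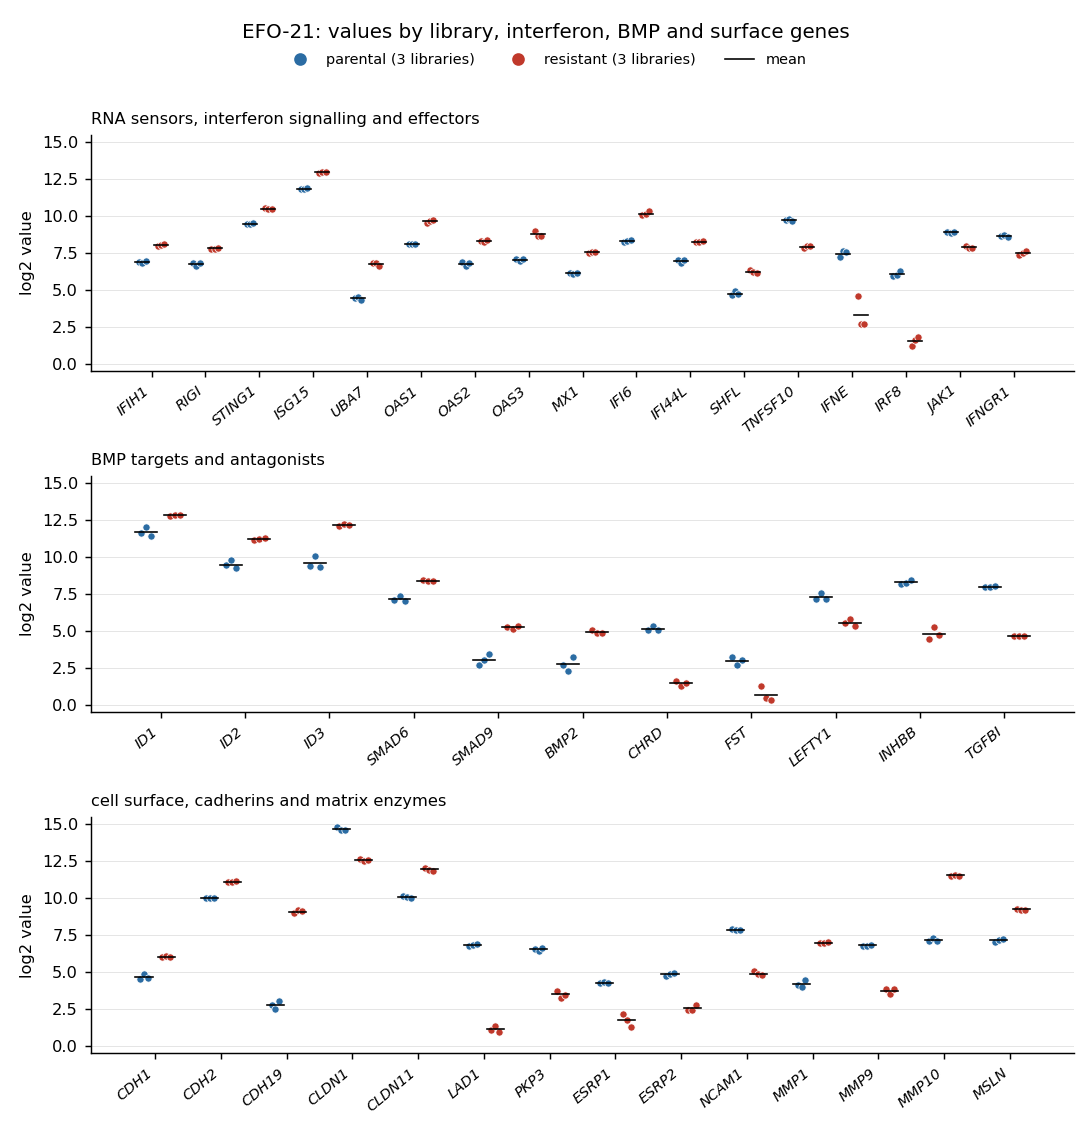
Deposited log2 values of named interferon, BMP and surface genes in the 6 EFO-21 libraries: blue points are the 3 parental and red points the 3 resistant libraries, and short black lines the group means. The OAS genes, the ID genes and the cadherins CDH1, CDH2 and CDH19 sit higher in the resistant libraries, and IFNE, IRF8, CHRD, LAD1 and MMP9 lower.

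Most genes of glucose use and hypoxia were lower in resistant cells. Of 42 measured genes, 6 fell (14.3%, against 7.15% of all genes) and none rose. A change above 0 was seen for 5 of the 42, and the median was -0.41. At any fold, 29 were lower and 2 higher at a limma adjusted p under 0.05, where 23.4% and 25% of all genes were. Carbonic anhydrase CA12, which exports acid, dropped from 8.51, 8.57 and 8.47 to 5.43, 5.42 and 5.22 (-3.16 ± 0.073, limma adjusted p = 1.17e-05). EPAS1, the oxygen-sensitive factor HIF2A, dropped from 6.82, 6.87 and 6.8 to 4.54, 4.0 and 4.32, and SLC2A1, the glucose transporter GLUT1, from 10.99, 10.97 and 11.02 to 9.68, 9.53 and 9.55. The hypoxia targets EGLN3 (-1.37), BNIP3 (-1.37) and PFKFB4 (-1.36) fell by similar amounts. The glycolytic enzymes LDHA (-0.84), HK2 (-0.57) and PGK1 (-0.37) were lower in every resistant library than in any parental one without reaching 2-fold. Groups did not overlap for 59.7% of all genes. The hypoxia marker CA9 was at the bottom in all 6 libraries.

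Respiratory chain genes had a smaller median change of the same sign, with a median of -0.23, although the 4 of 77 genes called lower (5.19%) were a smaller share than the 7.15% of all genes. None was called higher. At any fold, 43 were lower and 4 higher at a limma adjusted p under 0.05, where 23.4% and 25% of all genes were. COX7A1, a subunit of complex IV best known from muscle, dropped from 6.84, 6.97 and 7.12 to 4.42, 4.73 and 4.65, and NDUFC1 (-1.48), ATP5MC2 (-1.27) and UQCRH (-1.05) were the other falls. The medians of the 24 neighbours of COX7A1, NDUFC1, ATP5MC2 and UQCRH were -0.05, -0.65, -0.86 and -0.18. In lipid synthesis, 5 of 37 genes fell (13.5%, against 7.15% of all genes) and none rose. ELOVL6, which lengthens fatty acids, went from 4.45, 4.54 and 4.72 to the bottom, and the desaturases SCD (9.96, 10.25 and 9.75 to 8.99, 8.79 and 8.79) and FADS2 (-1.38), the mevalonate kinase MVK (-1.26) and the transcription factor SREBF1 (-1.08) fell. The medians of the 24 neighbours of ELOVL6, SCD, FADS2, MVK and SREBF1 were -0.93, -0.03, 0.14, -0.12 and 0.26. Without parental library 11, SCD and SREBF1 were not called. FASN was not called (-0.16).

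Metallothioneins, small proteins that bind zinc and copper, had the highest share of falls of any list. Of 7 measured members 4 fell (57.1%, against 7.15% of all genes), with a median of -2.27. All lie close together on chromosome 16, and their reads could be shared. MT1F dropped from 7.93, 7.88 and 7.63 to 5.58, 5.51 and 5.54 (-2.27 ± 0.092, limma adjusted p = 3.22e-05), MT1G from 5.14, 4.74 and 5.23 to 1.44, 2.09 and 1.98 and MT1M from 6.03, 5.45 and 5.71 to 3.63, 2.98 and 2.75, while MT1A ended at the bottom (-3.21). With genes of low mean value left out, 2 of the 4 calls remained. MT2A was not called (11.54, 11.59 and 11.74 in parental, 10.998, 11.19 and 11.09 in resistant libraries). Of 25 NRF2 targets, 4 fell (16%, against 7.15% of all genes), among them GPX2 (-1.49) and AKR1B10 (-1.54, ending at the bottom), with no rise. The other 2, the close copies AKR1C1 (-1.0) and AKR1C2 (-1.0), were not called without library 22 or 23, and with genes of low mean value left out no call of the list remained. NQO1 (-0.21) and HMOX1 (-0.67) were not called. Of 18 genes of the ATF4 response to amino acid stress, ATF5 (-1.09), VLDLR (-1.03) and SHMT2 (-1.0) fell (16.7%, against 7.15% of all genes). These were all close to the 2-fold threshold, and without resistant library 24 1 call was left. The medians of the neighbours of ATF5, VLDLR and SHMT2 were -0.11, 0.13 and -0.71. DDIT3 (-0.84) and ASNS (0.5) were not called.

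Surface antigens and markers of ovarian cancer and of stem-like cells were mostly lower where they changed. Of 24 measured ovarian lineage factors and surface antigens, 4 fell (16.7%) and 1 rose (4.17%), against 7.15% and 7.11% of all genes. Their median was 0.057, and none of the 11 lineage factors was called. With genes of low mean value left out, 2 falls and 1 rise remained. MSLN, mesothelin, was the exception, with 7.0, 7.2 and 7.24 in parental and 9.28, 9.22 and 9.23 in resistant libraries (2.1 ± 0.068, limma adjusted p = 1.79e-05). It lies on the short arm of chromosome 16, where 23 of its 24 neighbours were above 0 with a median of 1.14. The kallikrein proteases KLK6 (-4.35, ending at the bottom), KLK7 (-1.28) and KLK11 (-1.28) fell. FOLR1 (0.41), MUC16 (0.39), SOX17 (0.31) and PAX8 (0.2) were not called. Among 14 stem-like markers, 4 fell (28.6%, against 7.15% of all genes) and none rose: the aldehyde dehydrogenases ALDH1A1 (10.87, 11.07 and 10.77 to 9.22, 9.38 and 9.38), ALDH1A3 (-1.99) and ALDH3A1 (-1.51), and SOX9 (-1.17). PROM1 (0.51) and CD44 (-0.87) were not called. Of 10 ABC drug transporters, ABCC6 (2.43, 2.66 and 1.99 to 4.65, 4.41 and 4.29) and ABCC3 (4.94, 5.09 and 5.01 to 6.33, 6.17 and 6.33) rose and ABCG2 fell to the bottom (-1.63), and ABCC1 was not called (0.41). The shares of transporters were 20% higher and 10% lower, against 7.11% and 7.15% of all genes. The transporters held 1 call with genes of low mean value left out. MYCN, a relative of MYC, rose from 5.35, 4.74 and 5.03 to 7.23, 7.08 and 7.05 (2.08 ± 0.16, limma adjusted p = 0.000264). Of 30 MYC target and ribosome genes, none rose and 2 fell (6.67%, near the 7.15% of all genes), EIF4E (-1.53) and PA2G4 (-1.1), whose 24 neighbours had medians of -1.07 and -1.02.

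Epidermal genes went both ways, 3 of 28 higher (10.7%) and 6 lower (21.4%), against 7.11% and 7.15% of all genes. The list had 1 rise and 3 falls with genes of low mean value left out, and with only the genes that the authors summarised by a robust linear model, no rise and 6 falls. The 3 rises lie in the epidermal complex of chromosome 1: besides FLG2, its neighbour HRNR rose from 4.7, 4.37 and 4.52 to 6.82, 6.42 and 6.78, and RPTN, listed at 0 in the parental libraries, read 4.17, 5.4 and 5.64 in the resistant ones. The calprotectin genes in the same complex fell, S100A9 from 13.1, 13.13 and 13.26 to 10.46, 10.44 and 10.88 (-2.57 ± 0.13, limma adjusted p = 5.58e-05) and S100A8 from 5.83, 5.5 and 5.89 to the bottom. KRT17 (-2.66), KRT23 (-1.4), KRT16 (-1.84) and S100P (-1.77) fell. KRT16 was not called in the fit of all 23 libraries, and S100P not in 5 of the 6 fits with 1 library left out. KRT16 and KRT17 are close copies. Of 31 germline and retroelement genes, 5 fell (16.1%) and 1 rose (3.23%). GTSF1 is the largest fall, followed by the retroviral envelope genes ERVV-2 (-2.3), ERVMER34-1 (-2.16) and ERVV-1 (-1.13, not called without library 11), the cancer-testis gene SSX1 (-1.4, ending at the bottom), and MAGEC2, the rise, was at the bottom in both groups and was not called without library 12, 22 or 24. The ERVV genes are close copies of each other. PRAME overlapped between the groups (-0.082).

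A further 37 genes that the lists marked as reference points were not called either. Their changes ranged from -0.94 for MDM2 to 1.2 for GRHL2, whose adjusted p missed the threshold. The others were ADM, C3, CCND2, CD74, COL1A1, ELF3, ESR1, GCLM, HMGA2, HMGCS1, IDI1, IL1A, IL32, IL6ST, INSIG1, IRF7, LIN28B, MAGEA4, NDRG1, NLRC5, PDK1, PTGS2, RAB25, S100A14, S100A2, S100A4, SAMD9L, SFRP1, SLC7A11, SOX2, SPARC, SQLE, TAP1, THBS1 and TRIB3.

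Changes were not spread evenly over the genome. Genes were placed on GRCh37, and windows of 25 neighbouring genes above the 25th percentile of mean value were read by their median change. Over 14277 such overlapping windows the 5th to 95th percentile of the median was -0.43 to 0.31. The lowest window was chr4:95128762-106817143, with a median of -1.25 and 20 of 25 genes called lower, followed on the same arm by chr4:106629935-113578852 (median -1.06) and chr4:118495667-128887189 (-0.91). On chromosome 4 as a whole 87 of 505 genes fell and 23 rose, 21.8% called, the highest share of any autosome. Chromosome 6 held the window chr6:149916009-157531913, with a median of -1.20 and 14 genes lower. On chromosome 12 all 25 genes of chr12:56119107-56664750 were below 0 (median -1.08, 15 lower), a window that holds ERBB3 and PA2G4, and chr12:53604351-54867386 followed with -0.91, a window that holds GTSF1. The highest windows lay at the tip of chromosome 16, where all 25 genes of chr16:616995-1036979 were above 0 (median 1.18, 15 higher), a window that holds MSLN. The window chr16:2389151-3110727, which holds PKMYT1, had a median of 0.78 with none of 25 below 0. The part of such stretches in the change of any single gene was not tested.

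The response of EFO-21 was finally set against the mean response of OV-90, Kuramochi and OVSAHO, in 1 limma fit of all 23 libraries. OV-90 had 5 libraries, with libraries 2 and 3 as its only parental ones. The response differed, at an adjusted p under 0.05 and a difference of at least 1, for 3726 genes (17.2%), 1838 more positive in EFO-21 and 1888 more negative, and 1980 of them were also called in EFO-21 itself. Of the genes named, EREG differed most. It fell by 8.55 in EFO-21 but had changes of 3.87 in OV-90, 3.68 in Kuramochi and 2.75 in OVSAHO, a difference of -11.99 ± 0.41 (limma adjusted p = 3.96e-13). TFPI (-7.32 ± 0.18), with -0.4 in OV-90, 2.57 in Kuramochi and 0.38 in OVSAHO, and CXCL14 (-6.61 ± 0.32), with 0.74 in OV-90, 3.82 in Kuramochi and 1.72 in OVSAHO, differed in the same direction. ADA2 differed by -7.8 ± 0.76 and NAP1L5 by -7.32 ± 0.37. On the positive side, FLG2 (8.41 ± 0.78) and XIRP2 (7.85 ± 1.69), both listed at 0 in parental EFO-21, had the highest values of the genes named. CDH19 differed by 5.76 ± 0.39, with changes of -0.79 in OV-90, -0.028 in Kuramochi and 2.52 in OVSAHO. ACTC1, cardiac actin (6.06 ± 1.0), rose in EFO-21 from 1.86, 1.54 and 2.15 to 5.82, 6.02 and 6.1 and had -2.63 in OV-90, -3.06 in Kuramochi and -0.1 in OVSAHO, and the lysophosphatidic acid receptor LPAR4 rose from 2.02, 2.84 and 1.62 to 6.08, 6.3 and 6.33 and had -1.92 in OV-90, -3.01 in Kuramochi and 0.18 in OVSAHO.

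Several of the patterns described above also differed from the other lines, and others were not called different. The ID genes had more positive responses in EFO-21 (differences of 2.2 for ID1, 1.33 for ID2 and 3.26 for ID3), as did CDH1 (2.73 ± 0.22, limma adjusted p = 2.28e-08), which had 0.65 in OV-90, -3.0 in Kuramochi and -1.67 in OVSAHO. CXCL5 fell in EFO-21 and had 2.04 in OV-90, 2.17 in Kuramochi and 2.06 in OVSAHO, a difference of -3.36 ± 0.25. CDK6 differed by -5.25 ± 0.43, with 1.32 in OV-90, 0.71 in Kuramochi and 1.23 in OVSAHO. Of the interferon effectors, MX1 (1.6 ± 0.21) and IFI6 (2.28 ± 0.22) had more positive responses, whereas OAS3 did not differ from the mean of the other lines by more than the error (-0.03 ± 0.29, limma adjusted p = 0.944), and it had 1.14 in OV-90, 2.88 in Kuramochi and 1.21 in OVSAHO. GTSF1 was more negative than the mean of the others (-4.67 ± 0.22), although it had -0.54 in OV-90, -4.72 in Kuramochi and -6.51 in OVSAHO. SMIM22 (-0.52 ± 0.45, limma adjusted p = 0.375) and TMPRSS4 (0.25 ± 0.23, limma adjusted p = 0.407) were not called different, with -2.8 in OV-90, -5.77 in Kuramochi and -2.41 in OVSAHO for SMIM22 and -2.25 in OV-90, -1.67 in Kuramochi and -4.49 in OVSAHO for TMPRSS4. SMIM22 ended at the bottom in EFO-21, so its change there is a difference between values and not a measured fold.

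**Figure D5:**
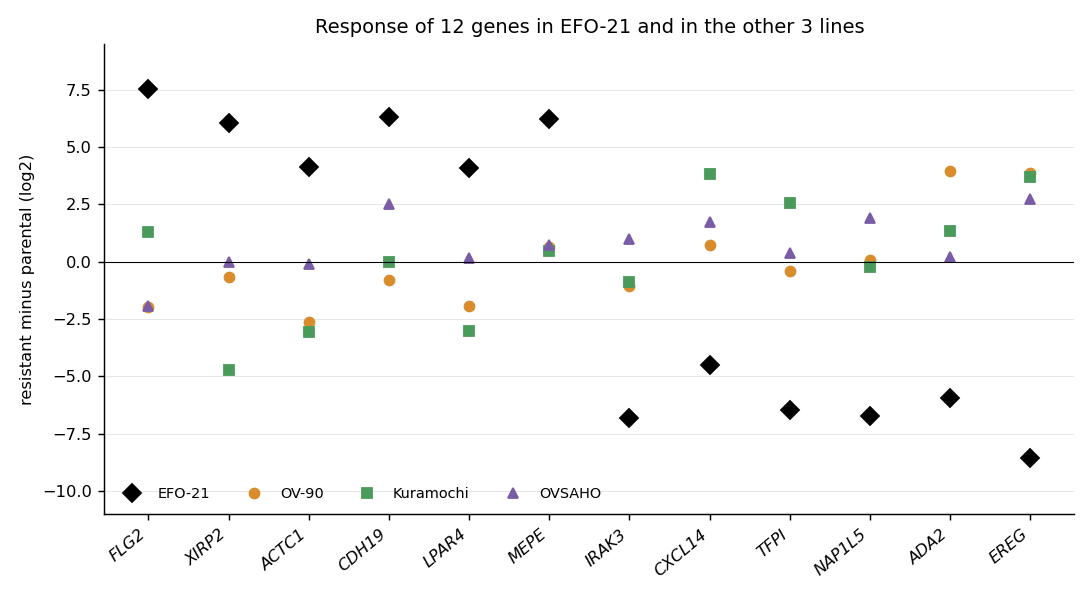
Resistant minus parental (log2) of 12 genes, the 6 largest differences each way between EFO-21 and the mean of the other 3 lines. They were taken among genes also called in EFO-21 whose higher EFO-21 group mean was above the median gene. Black diamonds are EFO-21, orange circles OV-90, green squares Kuramochi and purple triangles OVSAHO, each the difference of 2 group means. EREG lies at -8.55 in EFO-21 and between 2.75 and 3.87 in the other lines, and CDH19 at 6.33 in EFO-21 and 2.52 or lower elsewhere; FLG2 and XIRP2 were listed at 0 in parental EFO-21.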

How the data were processed

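RNA was sequenced by the authors from stranded mRNA libraries, and reads were placed on GRCh37 (hg19), per the submitters' processing notes. The deposited table holds log2 expression values of 21658 genes, made by the authors with a robust linear model (16448 genes) or a mean log2 value (5210 genes) and quantile normalised, so read depth is unknown and no interval or limit from counts can be given. Symbols were matched for 20745 of the gene IDs (95.8%), and GRCh37 positions for 19359.

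From these values, resistant and parental EFO-21 were compared in R 4.3.3 with limma 3.58.1 (lmFit, eBayes with trend) on the 6 libraries, with Benjamini-Hochberg adjustment over all genes. A gene was called at an adjusted p under 0.05 and at least 2-fold. An exact permutation test of 3 against 3 libraries cannot give a two-sided p below 0.1, so limma, which pools the spread over genes, was used. Responses of the 4 lines were compared in 1 fit of 23 libraries with 8 group means. On simulated data, the EFO-21 fit recovered 87% of genes changed by 1.5 and 93% of those changed by 2 on the log2 scale, and the fit against the other lines 93% and 95%. Of the genes called in these 2 fits, 3.74% and 1.57% were false. The changed genes were drawn only from those with a parental EFO-21 mean above the median, so recovery of genes with lower parental values was not examined.

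The members and gene lists were chosen with earlier results of these data known. Genes named were the 12 largest rises and falls with groups that did not overlap and a higher group mean above the median gene, up to 6 called genes each way per list, reference genes marked in the lists, and the 6 largest differences each way against the other lines. A few genes and 1 list that the rule reaches are not reported here. NFKB1, SNAI1, FOXC2, NOG, MAFF, CXCL2, WNT6 and WNT7B were named after their values were seen. Promoter sequences came from RefSeq (GRCh38.p14). The alternatives were a fit of all 23 libraries, no trend, recentred libraries, a filter on low values (mean above the 25th percentile), robust-model genes only, other fold thresholds, each other line alone, and leaving out each library.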

Additional observations from a re-analysis of the deposited data

Results flagged for a closer look

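The response to resistance (resistant minus parental, log2) differed between EFO-21 and the mean of OV-90, Kuramochi and OVSAHO for the following 12 genes by limma's test of the difference itself across all 21658 genes, and these were the largest such differences under the rule for naming genes. On the negative side, EREG differed by -11.99 (limma adjusted p = 3.96e-13), ADA2 by -7.80 (2.06e-07), NAP1L5 by -7.32 (4.67e-11), TFPI by -7.32 (7.56e-15), CXCL14 by -6.61 (2.45e-11) and IRAK3 by -6.51 (3.71e-08). On the positive side, FLG2 differed by 8.41 (limma adjusted p = 1.09e-07), XIRP2 by 7.85 (0.00105), ACTC1 by 6.06 (8.68e-05), CDH19 by 5.76 (1.75e-09), LPAR4 by 5.66 (7.34e-08) and MEPE by 5.61 (7.28e-06). FLG2 and XIRP2 were listed at 0 in all 3 parental EFO-21 libraries, so their values are differences of the deposited numbers and not folds. With 3 libraries a group, and only libraries 2 and 3 for parental OV-90, no library was examined as an outlier.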

How the results depend on the processing

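The count of 3088 changed genes ranged from 2866 to 2936 when 1 library was left out (1384 to 1451 higher, 1441 to 1520 lower), the list count of 219 from 203 to 220 (71 to 81 higher, 129 to 139 lower), and the 3726 genes with a different response in EFO-21 from 3506 to 3616 (1718 to 1794 more positive, 1778 to 1843 more negative). Where this left 2 libraries in a group, limma pooled the spread. A fit of all 23 libraries gave 2969 changed genes, no trend 3007, recentring 3089 and robust-model genes alone 2147, of which 977 were higher.

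The filter on low values, which tests fewer genes, gave 1762 changed genes (884 higher, 878 lower) and 2124 different responses (970 more positive, 1154 more negative). A 1.5-fold threshold gave 5594 genes (2845 higher, 2749 lower) and 387 list members (166 and 221), and no fold threshold 10478 genes (5405 and 5073) and 672 list members (322 and 350). Against OV-90 alone 2910 genes were more negative, and against Kuramochi alone 5769 differed (2814 more positive, 2955 more negative). The cause was not tested.

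Of 327 named genes followed through the alternatives, 218 were called. None reversed under any alternative that tested it, 34 lost the call when 1 library was left out, and 36 lost it under any alternative that tested them. The filter on low values tested 250 of the 327 and the fit of robust-model genes 291. Genes left out of these fits were not counted as lost. No paired analysis was possible because the columns carry library numbers and no replicate numbers. Depth is unknown, so what depth limits cannot be given.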
